A study of Mus musculus with 12 samples.

Results

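The 98 genes described here had at least 5 times more RNA in oocytes without Tbpl2 than in wild-type (WT) oocytes at both ages of the series. They were selected on the measured values themselves. The rule took group means of the normalised read count, required a ratio of Tbpl2-/- over WT of at least 5 at postnatal day 14 (P14) and at P7, and required a mean of at least 100 over the 12 libraries. Of 55450 genes in the table, 11548 had such a mean. Among these, 204 reached the ratio at P14, 191 reached it at P7 and 111 reached it at both ages. The rule left out 13 of the 111 by symbol: 4 genes with names that start with Slc or Zfp, 4 that start with Gm, 3 that end in Rik, and Sohlh1 and Pmaip1. Since the rule used the genotype contrast, the ratios of Tbpl2-/- over WT below are a description and carry no test.

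The samples were pools of hand-picked mouse oocytes from secondary follicles at P14 and from primary follicles at P7. Each age was collected from Tbpl2-/- and from WT ovaries, with 3 libraries per group and 12 in all. The oocytes were selected by size, and the paper gives the same follicle stages for both genotypes. It also cites a defect of Tbpl2-/- females in forming secondary follicles and states that mutant oocytes fail to grow. Whether the mutant and WT pools matched in stage was not tested. The null allele is carried by the whole animal, so the follicle cells of the mutant lack the gene as well. The pools held 130 to 214 oocytes (P14 Tbpl2-/-), 144 to 260 (P14 WT), 251 to 340 (P7 Tbpl2-/-) and 350 to 400 (P7 WT), and the labels do not say which animals gave which pool. P-values therefore measure the spread between pools.

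TBPL2 is a paralogue of the TATA-binding protein, the factor that starts assembly of the transcription machinery at promoters, and is found in growing oocytes. The growing oocyte stores a large stock of messenger RNA for maturation and for the early embryo. RNA levels in such a cell reflect synthesis, storage and decay together, and an RNA sequencing library gives only shares of the RNA present.

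Total counts ran from 31467610 to 48030724 per library. Tbpl2 itself had 83.3, 81.9 and 75.3 normalised counts in P14 Tbpl2-/- oocytes against 2110.2, 2442 and 1900.5 in P14 WT oocytes. At P7 it had 117, 75.3 and 99.9 in Tbpl2-/- oocytes against 3090.2, 3317 and 3027 in WT oocytes, so the libraries fit their labels. The summed counts of 15 oocyte genes such as the zona pellucida genes were 768259 to 975506 in P14 Tbpl2-/- and 2177830 to 2577328 in P14 WT oocytes, and 999348 to 1026998 in P7 Tbpl2-/- and 2745827 to 2989856 in P7 WT oocytes. By library size alone, the median log2 of Tbpl2-/- over WT across all genes tested was 0.48 at P14 and 0.29 at P7. With the TMM factors used for the tests it was 0.07 and 0.02. Scaled by library size alone, 158 genes met the rule, including all 98.

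Together the 98 RNAs were a small part of each library. They summed to 98358 ± 2246 normalised counts in P14 Tbpl2-/- oocytes and 9937 ± 329 in P14 WT oocytes (mean ± SD, n = 3 each), which was 0.293 ± 0.00686% and 0.0219 ± 0.000201% of all counts. At P7 they summed to 89731 ± 3937 in Tbpl2-/- oocytes and 9540 ± 351 in WT oocytes, or 0.269 ± 0.0112% and 0.0233 ± 0.000774% of counts. In bulk pools like these, fewer cells of a type and less RNA per cell cannot be told apart. RNA per oocyte, from the amounts on the labels, was 40.4 ± 17.3 pg in P14 Tbpl2-/- and 23.9 ± 5.20 pg in P14 WT oocytes, and for P7 oocytes 17.7 ± 5.15 pg without Tbpl2 and 16.9 ± 5.77 pg in WT. Whether these amounts bear on the members was not tested.

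The median member had a ratio of 9.45 at P14 and 9.29 at P7, with ranges of 5.08 to 60.9 and 5.00 to 84.1. All 98 members had every Tbpl2-/- library above every WT library at both ages, a separation that 32.5% of the 17715 genes tested also showed at P14 and 32.4% at P7. There were 27 members above 10-fold at both ages and 5 above 20-fold at both. A further 37 stayed under 10-fold at both. The ratio was larger at P14 for 51 members and larger at P7 for 47.

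**Figure D1:**
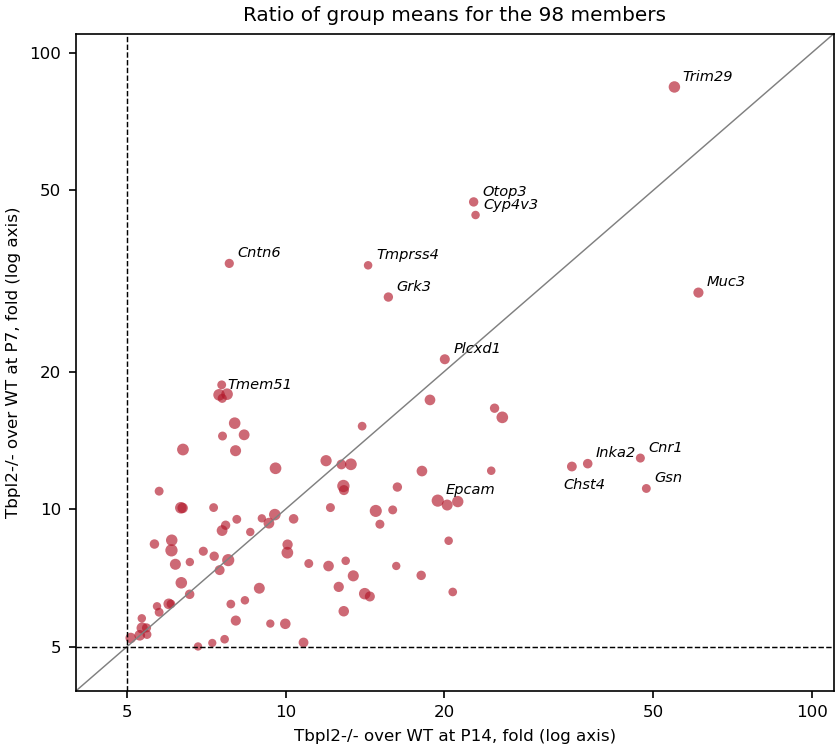
Ratio of group means, Tbpl2-/- over WT, for the 98 members, with the fold at P14 on the x axis and the fold at P7 on the y axis, both on log scales. Dashed lines mark the 5-fold limit of the rule, the grey line marks equal folds, and larger dots stand for members with a higher mean in Tbpl2-/- oocytes; Trim29 (54.8 and 84.1) lies farthest out along the line, while Cntn6 (7.82 and 34.5) and Gsn (48.5 and 11.1) lie far to either side of it.

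Trim29 encodes a tripartite motif protein known from stratified and other epithelia. It lies on chromosome 9 (GRCm38, chr9:43310848-43336115, plus strand), and it had the largest ratio at P7. It had 2252, 2966 and 3223 normalised counts in P14 Tbpl2-/- oocytes against 13.9, 75.8 and 64.3 in P14 WT oocytes, a ratio of 54.8. It had 1186, 1145 and 994 in P7 Tbpl2-/- oocytes against 18.1, 18.4 and 3.07 in P7 WT oocytes, a ratio of 84.1. The lowest mutant library was far above the highest WT library at each age, although WT replicates differed among themselves by several fold at these low counts.

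Otop3 encodes an otopetrin, a proton channel of the plasma membrane, and lies on chromosome 11 (chr11:115334731-115346927, plus strand). Its counts were 260.4, 368 and 438 in P14 Tbpl2-/- oocytes against 12.9, 18.4 and 15.6 in P14 WT oocytes, a ratio of 22.8. At P7 they were 492, 377 and 329 in Tbpl2-/- oocytes against 6.03, 9.19 and 10.2 in WT oocytes, a ratio of 47.1. The mutant pools overlapped between the ages, and the lower ratio at P14 came with a higher WT level. Of the other 3 genes in the list of proton channels, 1 passed the filter on low counts and it was not called at either age.

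Muc3, a membrane mucin of the intestinal surface, had the largest ratio at P14. It had 1671, 768 and 951 counts in P14 Tbpl2-/- oocytes against 19.3, 11.5 and 24.9 in P14 WT oocytes (60.9-fold). At P7 it had 245, 196 and 194 in Tbpl2-/- oocytes against 7.03, 13.3 and 1.02 in WT oocytes (29.8-fold). P14 Tbpl2-/- replicate 1 was well above the other 2 of its group for this gene.

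Cyp4v3, a cytochrome P450 that hydroxylates fatty acids, was at 241, 224 and 233 counts in P14 Tbpl2-/- oocytes against 10.7, 10.3 and 9.34 in P14 WT oocytes. In P7 oocytes it was at 233, 152 and 156 without Tbpl2 against 0, 8.17 and 4.09 in WT, the only member with no count in a WT library. The ratios were 23.0 and 44.1, and the second of these rests on very few WT reads. Plcxd1, which carries a phospholipase C catalytic domain, was the last of the 5 above 20-fold at both ages, at 20.1 and 21.3. In its annotated exons, 29.3% of bases lie in exons of Gtpbp6 on the other strand.

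The next largest of the smaller ratios belonged to Il17rc, Mir9-3hg, Itgb2, Grk3 and Tmprss4. Il17rc, a subunit of the receptor for interleukin 17, had 604, 569 and 574 counts in P14 Tbpl2-/- against 22.5, 29.9 and 40.5 in P14 WT oocytes, and 1606, 1584 and 1205 against 59.3, 90.9 and 103 at P7. Itgb2, the beta subunit shared by leukocyte integrins, had 3142, 3602 and 3861 counts in P14 Tbpl2-/- against 108, 178 and 124 in P14 WT oocytes, and 1284, 1154 and 967 against 75.3, 82.7 and 56.2 at P7. Of 12 blood genes, 3 passed the filter on low counts, of which Cd3e was called higher at P14 and none was called at P7, and the list summed to 85.7 to 121 counts in P14 Tbpl2-/- and 112 to 146 in P14 WT oocytes.

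**Figure D2:**
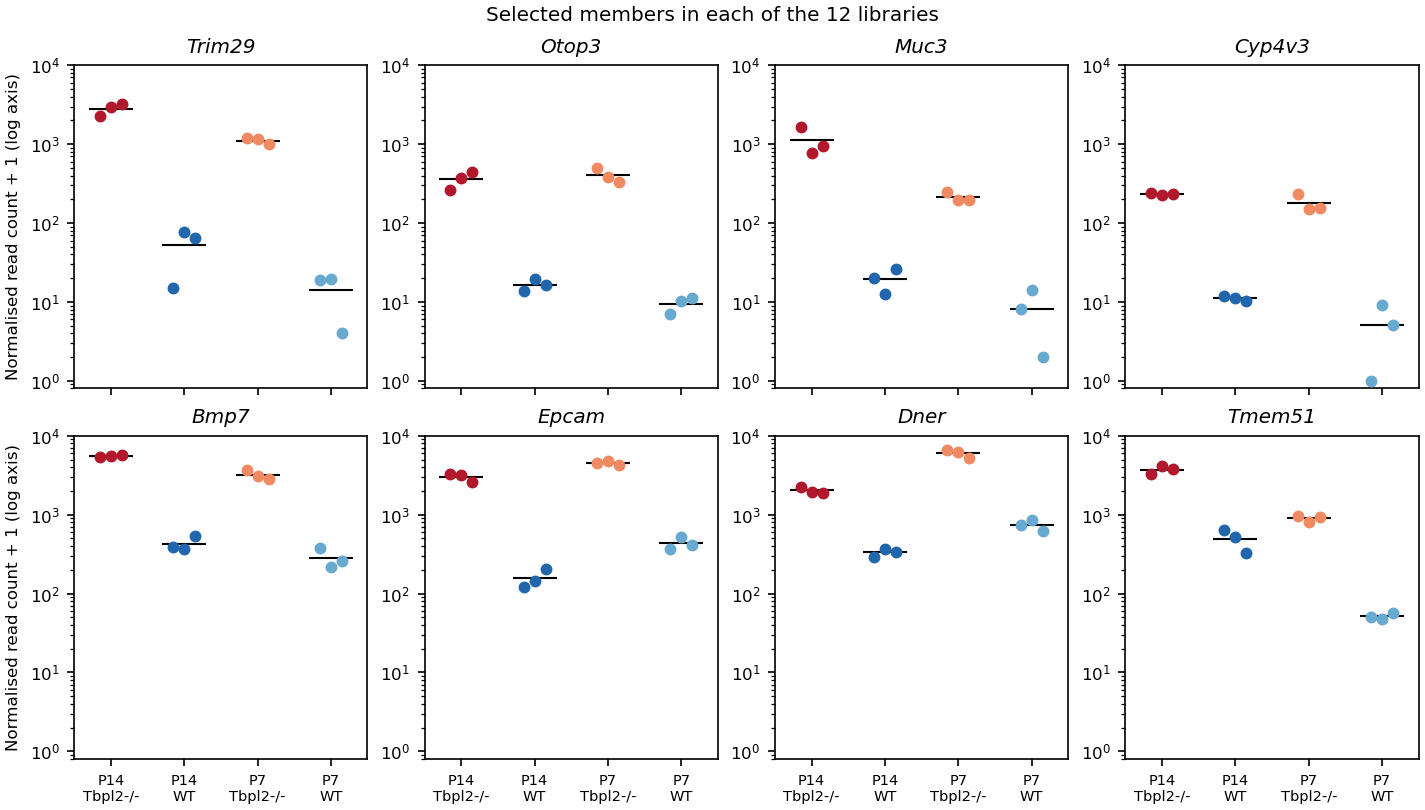
Normalised read count plus 1, on a log axis, of 8 members in each library, with 3 dots and a line at the mean for each group, P14 Tbpl2-/-, P14 WT, P7 Tbpl2-/- and P7 WT. In all 8 panels the mutant dots lie above the WT dots of the same age, from Cyp4v3, with 0 counts in 1 WT library, to Dner, with up to 6559 counts in a mutant library.

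The promoters of the members were read from RefSeq (GRCm38.p6), as 300 bases that run from 250 before to 50 after the annotated start. A promoter was found for 77 of the 98 members, Trim29 not among them, and for 64 of the 77 the RefSeq start lay within 500 bases of the gene start used for counting. The TATA box is the classic element that the TATA-binding protein recognises, so the sense strand was searched for the hexamer TATAAA, for its form with a last base of G (TATAAG) and for the repeat form (TATATA), each with a start 40 to 20 bases before the transcription start. Prox1 was the only member with a match, a TATATA that begins 32 bases before the start, which was 1.30% of the members with a promoter. The same search gave 10.8% (8 of 74) for the genes at least 5-fold lower at both ages, 2.26% (206 of 9105) for the genes with a mean of at least 100, and 4.10% for all 27025 RefSeq genes. Anywhere in the window and on either strand, at least 1 of the 3 hexamers, which can overlap each other, stood in 14.3% of members, 31.1% of the lower genes, 13.2% of genes with a mean of at least 100 and 24.1% of all. The starts were annotated ones, not starts mapped in these oocytes, so the 40 to 20 base window may lie off the start in use. A search for 3 exact hexamers also leaves out looser TATA-like sequences.

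The 60 bases just before the start are given for Prox1, to show the match, and for the 4 members with the largest smaller ratio among those with a RefSeq start within 500 bases of the counted gene. Capitals mark the TATATA of Prox1, and the other 4 have no match in the searched window.
Prox1 (chr1:190170828-190170887, minus strand): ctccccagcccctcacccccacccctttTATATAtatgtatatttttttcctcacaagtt
Cyp4v3 (chr8:45333164-45333223, minus strand): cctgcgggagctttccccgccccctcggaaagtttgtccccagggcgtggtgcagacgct
Otop3 (chr11:115334671-115334730, plus strand): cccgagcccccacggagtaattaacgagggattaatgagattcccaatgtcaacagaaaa
Plcxd1 (chr5:110099909-110099968, plus strand): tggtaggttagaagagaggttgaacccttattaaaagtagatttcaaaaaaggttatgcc
Il17rc (chr6:113471395-113471454, plus strand): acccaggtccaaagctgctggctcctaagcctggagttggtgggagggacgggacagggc

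By CpG ratio the members stood between the lower genes and the genes with a mean of at least 100. This ratio, observed CpG over that expected from the base content, was at least 0.6 in 52.0% of members, 36.5% of the lower genes, 73.0% of genes with a mean of at least 100 and 35.6% of all RefSeq genes. The median GC content was 60.3% in members, 56.0% in the lower genes and 61.0% in genes with a mean of at least 100. A GC content of at least 55% was most frequent in the members, at 77.9%, against 56.8% of the lower genes, 74.6% of genes with a mean of at least 100 and 43.2% of all RefSeq genes. None of these shares was tested, and genes within a set are not independent of one another.

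**Figure D3:**
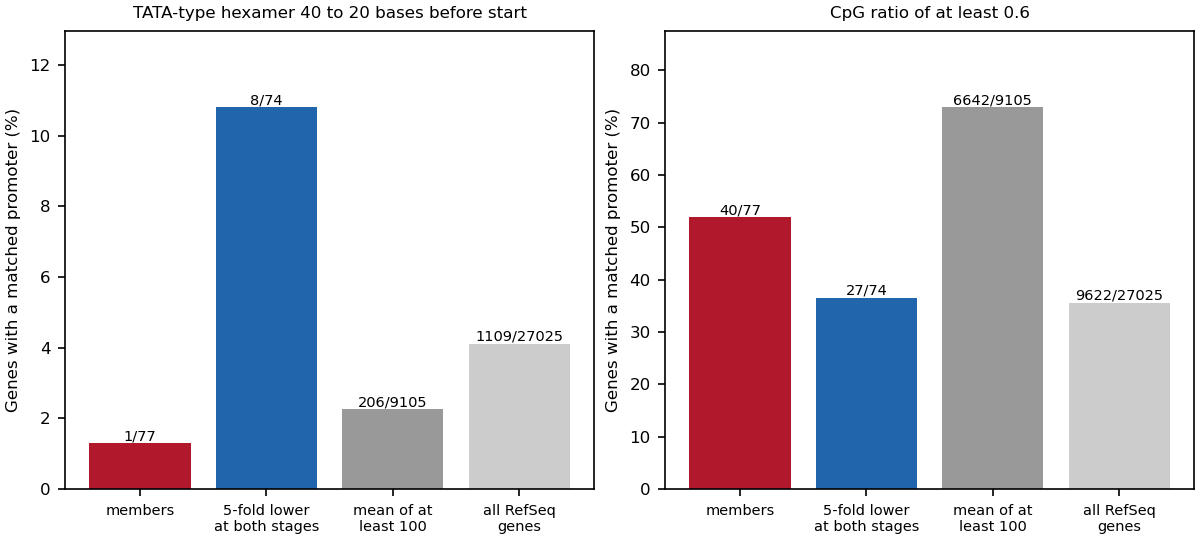
Share of genes with a matched RefSeq promoter (y axis, in percent) that held any of the 3 TATA-type hexamers 40 to 20 bases before the start (left) or a CpG ratio of at least 0.6 (right), with the counts above each bar. Bars stand for the members, the genes 5-fold lower at both ages, the genes with a mean of at least 100 and all RefSeq genes; members had the lowest share with a hexamer (1.30%) and an intermediate share with a high CpG ratio (52.0%).

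The most abundant members coded for a ligand, surface proteins and a few enzymes and adaptors. Bmp7, a secreted bone morphogenetic protein, had 5302, 5513 and 5738 counts in P14 Tbpl2-/- oocytes against 383, 363 and 539 in P14 WT oocytes (12.9-fold). In P7 oocytes it had 3627, 3058 and 2826 without Tbpl2 against 372, 214 and 261 in WT (11.2-fold). It was the highest of all members by mean over mutant libraries, and the groups were far apart at both ages.

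Dner, a transmembrane protein with epidermal growth factor repeats that binds Notch, had 2229.5, 1951 and 1897 counts in P14 Tbpl2-/- oocytes against 292, 369.7 and 339 in P14 WT oocytes (6.07-fold). At P7 it had 6559, 6167 and 5214 in Tbpl2-/- oocytes against 739, 849.8 and 619 in WT oocytes (8.12-fold). Epcam, the epithelial cell adhesion molecule, had 3289, 3145 and 2629 counts in P14 Tbpl2-/- oocytes against 119, 141 and 205 in P14 WT oocytes (19.5-fold), and 4555, 4814 and 4197 against 364, 524 and 412 at P7 (10.4-fold). Both were lower at P14 than at P7 in either genotype.

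Kctd21, a BTB-domain adaptor of cullin ligases, changed least with age among the abundant members, with 4087, 3516 and 3870 counts in P14 Tbpl2-/- against 457, 518 and 499 in P14 WT oocytes and ratios of 7.78 at P14 and 7.73 at P7. Pnpla5, a patatin-like lipase, averaged 4794 ± 975 counts in P14 Tbpl2-/- and 323 ± 38.2 in P14 WT oocytes (14.8-fold), and 2029 ± 311 and 205 ± 26.4 at P7 (9.91-fold). Plxnd1, a semaphorin receptor, spread most among P14 mutant pools in this group, at 2032, 3174 and 4013 counts against 184, 189 and 319.5 in P14 WT oocytes. Frmpd1, a protein with FERM and PDZ domains, and Dlg2, a synaptic scaffold, completed the 8, with ratios of 6.38 and 10.1 at P14 and of 13.5 and 8.03 at P7.

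Per kb of exon, Pnpla5 stood highest of the members named so far in P14 Tbpl2-/- oocytes, at 2207 normalised counts per kb, against 149 per kb in P14 WT oocytes. Epcam had 1376 and 70.7 per kb and Bmp7 had 1373 and 107 per kb in the same groups, which puts both at nearly the same level per length in the mutant.

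**Figure D4:**
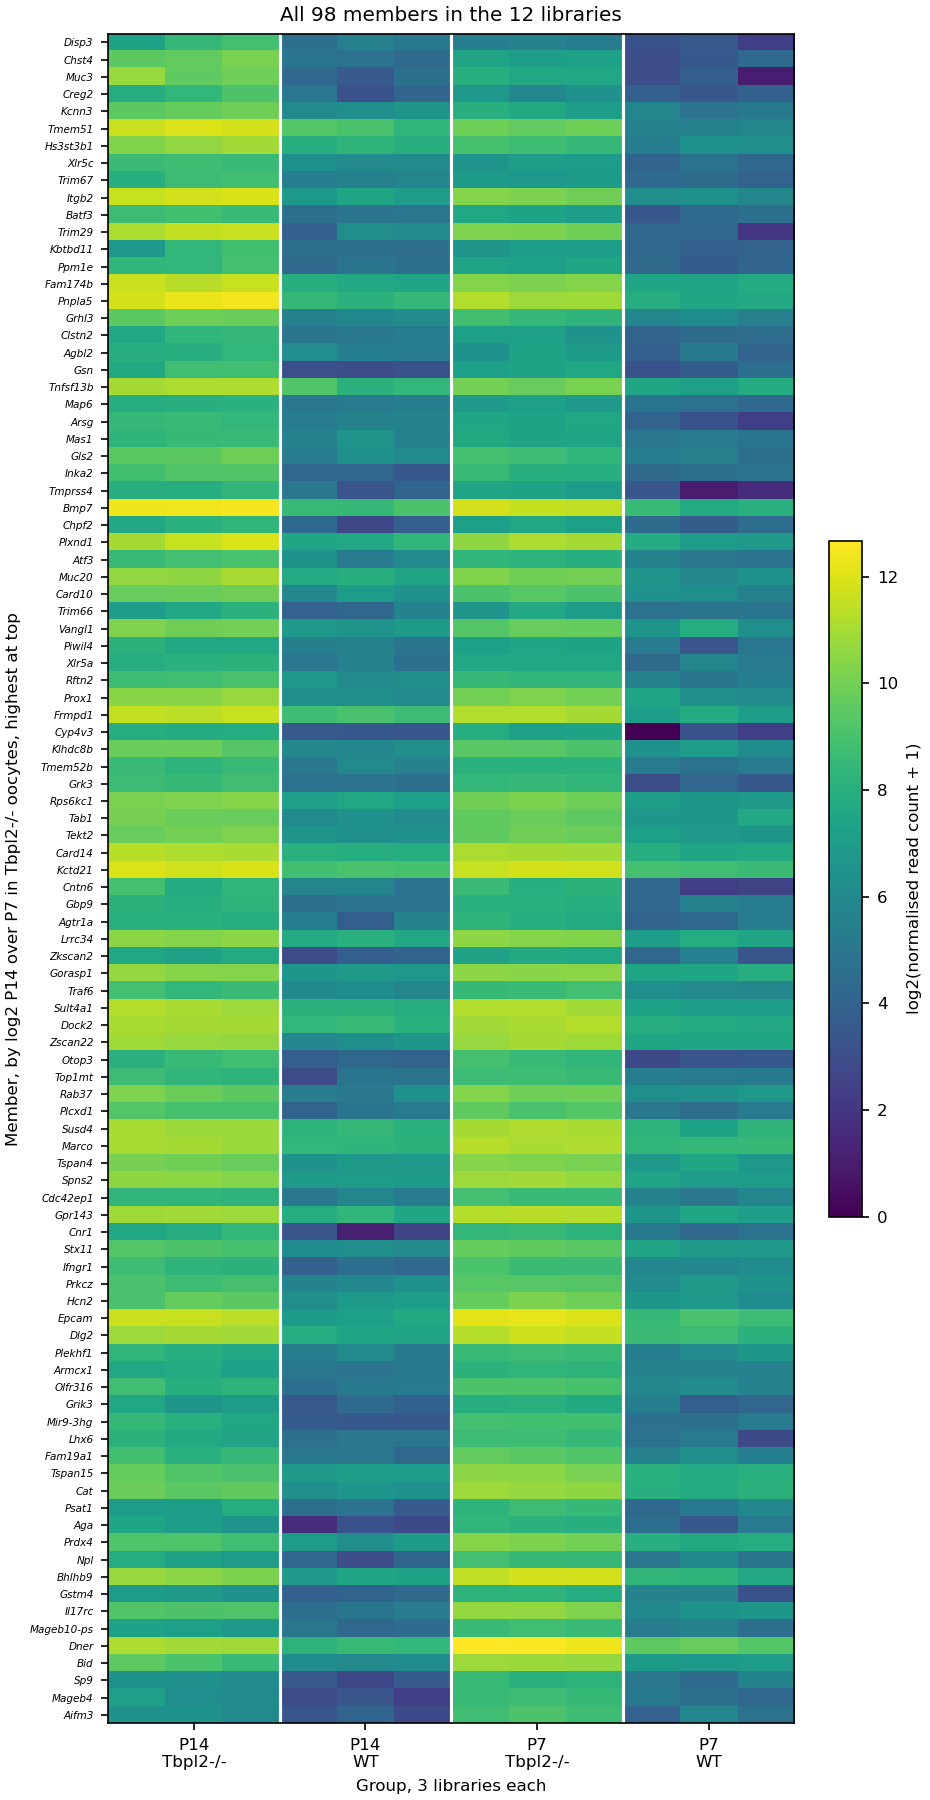
Log2 of the normalised read count plus 1 (colour) for all 98 members (rows, ordered by log2 P14 over P7 in Tbpl2-/- oocytes with the highest at the top) in the 12 libraries (columns, by group). The mutant columns of each age are brighter than the WT columns in every row, and the P14 mutant columns are brighter than the P7 ones at the top (Disp3, Chst4, Muc3) and darker at the bottom (Aifm3, Mageb4, Sp9).

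The members were spread over many kinds of protein. A role was assigned to 46 members from their symbols, after their values were seen, and these roles were used only for description. Of 2 ligands, Tnfsf13b, the B cell activating factor, had a ratio of 5.34 at P14 and 5.49 at P7, under those of Bmp7. The 10 surface receptors (Plxnd1, Il17rc, Ifngr1, Cnr1, Agtr1a, Mas1, Gpr143, Marco, Grik3 and Olfr316) had ratios of 5.46 to 47.2 at P14 and 5.31 to 17.9 at P7. The highest of these at P14 was Cnr1, the cannabinoid receptor CB1, with 195, 228 and 332 counts in P14 Tbpl2-/- against 9.66, 1.15 and 5.19 in P14 WT oocytes.

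Proteins that act inside the cell in signalling were represented by 7 members. Traf6, Tab1, Card10 and Card14 are adaptors on routes to NF-kappaB, Prkcz and Grk3 are kinases and Ppm1e is a phosphatase, and their ratios were 6.58 to 16.0 at P14 and 5.98 to 29.1 at P7. The 8 transcription factors were Prox1, Grhl3, Lhx6, Sp9, Atf3, Batf3, Zscan22 and Zkscan2, with a median ratio of 14.8 at P14 and 9.09 at P7. Prox1, a homeodomain factor of lymphatic endothelium and liver, had 1391, 1391 and 1670 counts in P14 Tbpl2-/- oocytes against 79.4, 75.8 and 64.3 in P14 WT oocytes, and 1052, 1210.4 and 1045 against 179.8, 75.6 and 68.5 at P7. P7 WT replicate 1 was above the other 2 pools of its group, and it still lay far under the mutant pools.

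The 9 enzymes of metabolism and redox balance were Cat, Prdx4, Gstm4, Gls2, Psat1, Cyp4v3, Npl, Aga and Arsg, with ratios of 5.08 to 24.6 at P14 and 5.22 to 44.1 at P7. Cat, the catalase that breaks down hydrogen peroxide, had 917, 695 and 772 counts in P14 Tbpl2-/- against 79.4, 98.7 and 89.2 in P14 WT oocytes, and 1828, 1641 and 1542 against 250.1, 216 and 280.0 at P7. The ion channels were Otop3, the potassium channel Kcnn3 and the pacemaker channel Hcn2, with the lowest ratios for Hcn2 at P14 (6.38) and for Kcnn3 at P7 (5.10). Genes with a Trim symbol were 3 of the members (Trim29, Trim67 and Trim66), or 3.06%, against 0.343% of 10211 genes with a mean of at least 100 that the symbol exclusions kept. Other symbol families were looked at too, and none was tested. Ion channels (3.06% against 0.597%) and cytokines and their receptors (3.06% against 0.372%) also had a higher share in the members. The families of ABC transporters, cadherins and receptor kinases held no member.

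Members near a limit of the rule differed little from genes just outside it. At P14, Prdx4 (5.08), Tspan15 (5.29) and Agbl2 (5.33) were just inside and Sult1c1 (4.92), Ror2 (4.83) and Vldlr (4.77) just outside. At P7, Map6 (5.00), Trim66 (5.09) and Kcnn3 (5.10) were just inside and Wnt5a (4.94), Peli2 (4.91) and Crabp1 (4.81) just outside. For the mean over 12 libraries, Trim66 (100.3), Disp3 (102) and Zkscan2 (102) were inside, and Grip2 (92.7), Efcab1 (91.9) and Tex13b (89.5) were outside, although the ratios of these last 3 at P14 were 15.1, 14.5 and 15.5.

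Change with age was a contrast that the rule did not use, but it came from the same group means and libraries. Members also passed the floor of 100 mainly through the Tbpl2-/- groups. Median member means were 511.5 (P14) and 422.9 (P7) there, against 51.9 and 46.55 in WT. The shares of members below are therefore a description. Each genotype was tested by edgeR's quasi-likelihood test over all 17715 genes that passed the filter on low counts, which all 98 members did. Calls need an adjusted p (Benjamini-Hochberg) no larger than 0.05 together with a difference beyond 2-fold. In Tbpl2-/- oocytes, 23 members (23.5%) rose at P14 over P7, against 8.78% of all genes tested, and 15 (15.3%) fell, against 5.05%. In WT oocytes, 17 members (17.3%) rose, against 9.34% of all genes tested, and 15 (15.3%) fell, against 11.4%. Among the 11548 genes with a mean of at least 100 the shares were 5.83% and 3.39% in Tbpl2-/- oocytes and 8.04% and 8.27% in WT oocytes. The median log2 change of the members was 0.16 in Tbpl2-/- oocytes and 0.03 in WT oocytes, against 0.02 and 0.03 for all genes tested. With library size alone as the scale, the WT medians were −0.12 for the members and −0.13 for all genes.

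Members called in both genotypes moved the same way in each: 11 rose in both and 10 fell in both. The rule set only a lower limit of 5 on the ratio at each age. Opposite calls were therefore possible, but they need a ratio that differs strongly between the ages. The directions come from the group means that the rule used, so the shared direction is no independent result. In Tbpl2-/- oocytes alone 12 were called higher and 5 lower, in WT oocytes alone 6 were called higher and 5 lower, and 49 were called in neither. A call in 1 genotype only does not show that the genotypes differ, and that difference was not tested because it is built from the contrasts the rule used. Among the 79 members with at most 10% of shared or overlapping sequence, 18 rose and 12 fell in Tbpl2-/- oocytes, and 13 rose and 14 fell in WT oocytes.

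**Figure D5:**
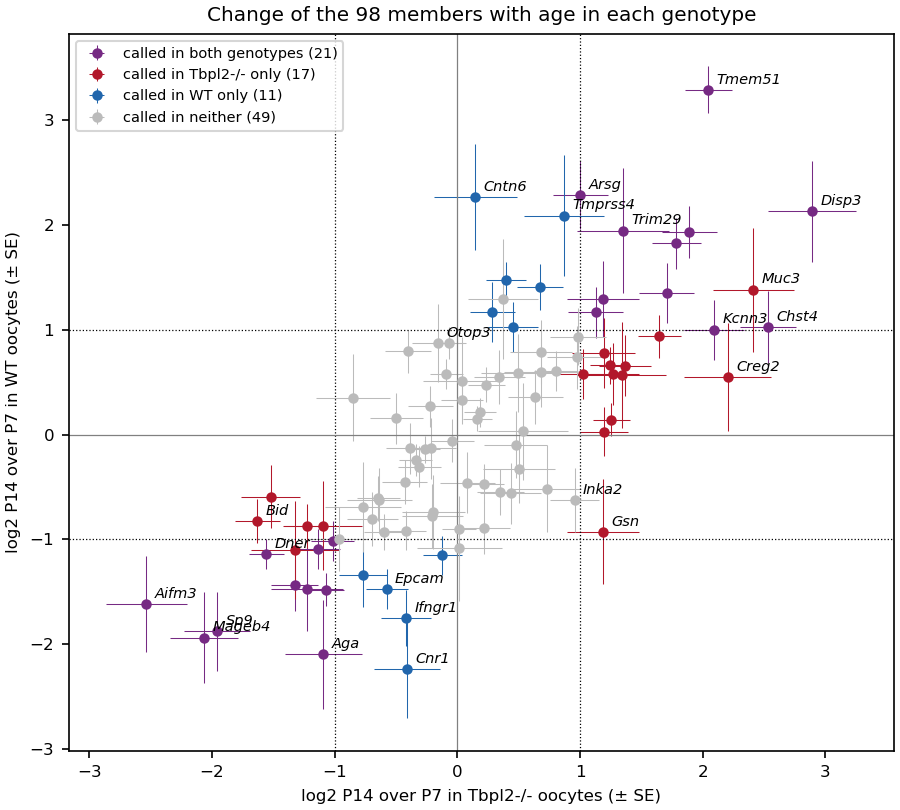
Log2 change at P14 over P7 of the 98 members in Tbpl2-/- oocytes (x axis) and in WT oocytes (y axis), with bars for the standard error and dotted lines at a 2-fold change. Colours mark members called in both genotypes (21), in Tbpl2-/- only (17), in WT only (11) or in neither (49). Disp3 and Tmem51 lie far up in both, and Aifm3, Mageb4 and Sp9 far down in both. No member was called in opposite directions, which would need a ratio of Tbpl2-/- over WT that differs strongly between the ages.

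The largest rise in Tbpl2-/- oocytes was that of Disp3, a transmembrane protein related to Dispatched and Patched. It had 157, 344 and 469 counts in P14 Tbpl2-/- oocytes against 41.4, 48.8 and 41.0 in P7 Tbpl2-/- oocytes, a log2 change of 2.89 ± 0.36 (SE, adjusted p = 2.87e-05). In WT oocytes it had 24.7, 44.8 and 34.2 at P14 against 8.04, 11.2 and 4.09 at P7, a log2 change of 2.13 ± 0.48 (adjusted p = 0.00193). The P14 and P7 pools did not overlap in either genotype, and P14 Tbpl2-/- replicate 1 was well under the other 2 pools of its group.

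Chst4, a sulfotransferase that makes ligands for L-selectin, rose by a log2 change of 2.53 ± 0.23 in Tbpl2-/- oocytes, with 723, 789.7 and 1111 counts at P14 against 166, 137 and 152 at P7. Muc3 followed with 2.41 ± 0.33, then Creg2, a secreted glycoprotein, with 2.20 ± 0.36, and Kcnn3 with 2.09 ± 0.25 (adjusted p of 2.05e-06 to 3.07e-04 for Chst4, Muc3, Creg2 and Kcnn3). In WT oocytes Chst4 changed by 1.03 ± 0.34 and Kcnn3 by 1.00 ± 0.29, just past 2-fold, and both calls were lost under most other settings. Muc3 (1.38 ± 0.59, adjusted p = 0.0667) and Creg2 (0.55 ± 0.51, adjusted p = 0.390) were not called in WT oocytes.

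Tmem51, a transmembrane protein, had the largest rise in WT oocytes. In Tbpl2-/- oocytes it had 3284, 4076 and 3738 counts at P14 against 958, 800.2 and 938 at P7 (log2 change 2.05 ± 0.19, adjusted p = 2.73e-06). The WT pools had 638, 525 and 322 at P14 against 49.2, 47.0 and 55.2 at P7 (3.29 ± 0.22, adjusted p = 2.88e-07). Its exons overlap those of the antisense gene Tmem51os1 over 13.0% of their bases. Without strand, reads of the 2 genes cannot be told apart there and would be left out of the counts.

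Arsg, a lysosomal arylsulfatase, rose by 1.00 ± 0.23 in Tbpl2-/- oocytes, a change under 2-fold in most other fits, including that with replicates paired in these 2 groups (0.98, adjusted p = 9.16e-05), and by 2.29 ± 0.32 in WT oocytes. Cntn6, a contactin of the neuronal surface, had 496, 225 and 323 counts in P14 Tbpl2-/- oocytes against 402, 256 and 284 in P7 Tbpl2-/- oocytes (0.15 ± 0.34, adjusted p = 0.768), so the mutant pools overlapped between ages. The WT pools had 53.7, 52.8 and 27.0 at P14 against 18.1, 4.08 and 5.11 at P7 (2.27 ± 0.51, adjusted p = 0.00214), with no overlap. Tmprss4, a transmembrane serine protease of epithelia, rose in WT oocytes by 2.09 ± 0.58 (adjusted p = 0.00725) on 1.02 to 10.1 counts at P7, and the call was lost without P14 WT replicate 1 (adjusted p = 0.0517).

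Trim29 passed the test in both genotypes, with a log2 change of 1.35 ± 0.38 in Tbpl2-/- oocytes (adjusted p = 0.0177) and 1.95 ± 0.60 in WT oocytes (adjusted p = 0.0184). The call in Tbpl2-/- oocytes was lost without P14 replicate 2 (adjusted p = 0.0592) or 3 (0.0611) and without P7 replicate 2 (0.0595) or 3 (0.0741) of that genotype, under DESeq2 (0.0747) and with no filter on low counts (0.0702). The call in WT oocytes was lost without P14 replicate 2 (0.0632) or 3 (0.0510) or P7 replicate 3 (0.0645) of WT, and with no filter on low counts (0.0799). Otop3 was called in neither, at −0.16 ± 0.21 in Tbpl2-/- (adjusted p = 0.588) and 0.87 ± 0.37 in WT oocytes (adjusted p = 0.0642).

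The largest fall in Tbpl2-/- oocytes was that of Aifm3, a relative of the mitochondrial apoptosis-inducing factor. It had 89.0, 89.5 and 64.0 counts in P14 Tbpl2-/- oocytes against 437, 554 and 423 in P7 Tbpl2-/- oocytes, a log2 change of −2.53 ± 0.33 (adjusted p = 4.25e-05). In WT oocytes it had 9.66, 16.1 and 6.22 at P14 against 15.1, 57.2 and 25.6 at P7, a log2 change of −1.62 ± 0.46 that was not called without P7 WT replicate 2 (−0.94, adjusted p = 0.0736). The mutant ages were well apart, while those in WT overlapped.

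Mageb4, an X-linked melanoma antigen gene, fell by 2.07 on the log2 scale in Tbpl2-/- oocytes, with 139.8, 73.6 and 63.2 counts at P14 against 373, 429 and 354 at P7. It fell by 1.94 in WT oocytes, and 50.1% of its 50-base stretches also lie in Mageb10-ps, so the counts of the pair are uncertain. Sp9, a zinc finger factor of limb and forebrain development, fell by 1.96 in Tbpl2-/- and by 1.88 in WT oocytes. The adjusted p-values of Mageb4 and Sp9 were 5.87e-05 and 6.46e-05 in Tbpl2-/- oocytes and 0.00190 and 7.22e-04 in WT oocytes.

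Bid, a member of the BCL2 family that promotes cell death, had 745, 548 and 388 counts in P14 Tbpl2-/- oocytes against 1810.0, 1778 and 1628 in P7 Tbpl2-/- oocytes (log2 change −1.63 ± 0.18, adjusted p = 1.21e-05). In WT oocytes it had 71.9, 62.0 and 67.4 at P14 against 118, 110.3 and 129.8 at P7 (−0.83 ± 0.21), under the 2-fold limit of a call. Of its exon bases, 17.7% overlap those of Bcl2l13 on the other strand. Dner fell by 1.56 in Tbpl2-/- oocytes and by 1.14 in WT oocytes (adjusted p = 1.90e-06 and 2.17e-05).

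In WT oocytes the largest falls were those of Cnr1, Aga, Mageb4, Sp9 and Ifngr1. Cnr1 changed by −0.41 ± 0.27 in Tbpl2-/- oocytes (adjusted p = 0.250) and fell by 2.24 in WT oocytes, with 9.66, 1.15 and 5.19 counts at P14 against 34.2, 18.4 and 25.6 at P7 (adjusted p = 0.00104). Aga, the lysosomal aspartylglucosaminidase, fell by 1.09 in Tbpl2-/- oocytes, a call lost without P14 Tbpl2-/- replicate 3 (adjusted p = 0.0651) or P7 Tbpl2-/- replicate 1 (0.0540). It fell by 2.10 in WT oocytes. Ifngr1, the ligand-binding subunit of the interferon gamma receptor, changed by −0.42 ± 0.20 in Tbpl2-/- oocytes. In WT oocytes it had 13.9, 23.0 and 18.7 counts at P14 against 57.3, 59.2 and 71.5 at P7 (−1.75 ± 0.27, adjusted p = 1.00e-04).

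The roles were assigned after the values were seen, so their counts with age are a description, to be set beside the shares of all genes tested (8.78% rose and 5.05% fell in Tbpl2-/- oocytes, 9.34% and 11.4% in WT oocytes). Among the 9 enzymes of metabolism and redox balance, 6 fell and 1 rose with age in Tbpl2-/- oocytes, and 4 fell and 1 rose in WT oocytes. Of the 10 surface receptors none rose in either genotype, 1 fell in Tbpl2-/- oocytes and 3 fell in WT oocytes. With 10 genes, these counts are too few to judge against the shares of all genes. The 7 adhesion and surface coat genes (Epcam, Cntn6, Clstn2, Itgb2, Dner, Muc3 and Muc20) were divided, with 3 that rose and 1 that fell in Tbpl2-/- oocytes and 2 that rose and 2 that fell in WT oocytes. Epcam, not called in Tbpl2-/- oocytes (−0.58 ± 0.17), fell by 1.47 in WT oocytes (adjusted p = 2.50e-05).

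Epcam, Tmprss4 and Trim29 belong to a list of 30 epithelial genes. Of the other 27, 19 passed the filter on low counts. At P14, 5 of these were higher in Tbpl2-/- oocytes (26.3%, against 16.7% of all genes tested) and 2 were lower (10.5%, against 14.6%). At P7, 7 were higher (36.8%, against 15.5%) and 1 was lower (5.26%, against 17.1%). Pkp3, a desmosome protein, was higher at both ages, with 450 ± 53.3 counts in P14 Tbpl2-/- and 41.9 ± 12.4 in P14 WT oocytes (log2 change 3.43 ± 0.25), and 171 ± 26.4 and 40.3 ± 10.3 at P7 (2.10 ± 0.25, edgeR adjusted p = 1.83e-08 and 2.55e-06). St14, the membrane protease matriptase, was also higher at both, by 1.46 ± 0.20 and 1.29 ± 0.20.

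Other defining epithelial genes went the other way or were not called. Krt8, a keratin of simple epithelia, was lower, with 19.5 ± 9.68 counts in P14 Tbpl2-/- and 253 ± 106 in P14 WT oocytes, and 6.52 ± 3.98 and 305 ± 14.9 at P7. Cdh1, E-cadherin, had 11439 ± 801 counts in P14 Tbpl2-/- and 14342 ± 546 in P14 WT oocytes and was not called at either age. The whole list of 30 summed to 49856 to 57041 counts in P14 Tbpl2-/- and 58413 to 60248 in P14 WT oocytes, and to 46305 to 49431 in P7 Tbpl2-/- and 37326 to 47195 in P7 WT oocytes.

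Markers of the ovarian surface epithelium, 14 genes, summed to 5016 to 9807 counts in P14 Tbpl2-/- and 3503 to 4187 in P14 WT oocytes, and to 2337 to 2522 in P7 Tbpl2-/- and 1478 to 1996 in P7 WT oocytes. These sums rested on 1 gene, Lrrn4, with 4591 to 9335 counts in P14 Tbpl2-/- and 1173 to 2310 in P14 WT oocytes, and 2007 to 2116 in P7 Tbpl2-/- and 570 to 1082 in P7 WT oocytes. The other 13 genes together went the other way, with 425 to 473 counts in P14 Tbpl2-/- and 1877 to 2330 in P14 WT oocytes, and 330.1 to 407 in P7 Tbpl2-/- and 908 to 919 in P7 WT oocytes. Lrrn4 was the only one of the 7 tested that was called higher, at both ages, while 4 were lower at P14 and 2 at P7. The 17 granulosa cell markers summed to 5155 to 5727 in P14 Tbpl2-/- and 5133 to 5422 in P14 WT oocytes, and to 2317 to 2825 in P7 Tbpl2-/- and 4103 to 5097 in P7 WT oocytes. Esr2 alone averaged 2884 counts in P14 Tbpl2-/- and 2684 in P14 WT oocytes. At P7, 11 of the 17 were lower (64.7%, against 17.1% of all genes tested) and none was higher. At P14, 1 was higher and 1 lower (5.88% each, against 16.7% and 14.6%). Sums of the endothelial (1037 to 1430 against 3417 to 4099 at P14) and theca and stroma markers (397 to 596 against 822 to 1065 at P14) were lower in Tbpl2-/- than in WT oocytes. In P14 WT oocytes each sum rested mostly on 1 gene, Pecam1 (mean 2491, against 439 in P14 Tbpl2-/-) or Ptch1 (669, against 265). Of 5 endothelial genes tested none was higher, and 2 were lower at P14 (40%) and 1 at P7 (20%). Of 9 theca and stroma genes tested, 2 were higher and 2 lower at each age (22.2% each). Among all genes tested, 14.6% to 17.1% were called in each direction at each age. The part of the surface epithelium in the level of the members was not tested.

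Atf3 and Psat1 are on a list of 15 genes downstream of the stress factor ATF4. Atf3, a factor of the stress response, had 379, 479.5 and 518 counts in P14 Tbpl2-/- against 90.2, 35.6 and 62.2 in P14 WT oocytes, and 323, 288 and 252 against 49.2, 32.7 and 27.6 at P7. Psat1, an enzyme of serine synthesis, had 129, 137 and 231 in P14 Tbpl2-/- against 22.5, 27.6 and 11.4 in P14 WT oocytes, and 291, 410.2 and 364 against 19.1, 33.7 and 59.3 at P7.

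The other 13 ATF4 genes were divided, and of all genes tested 16.7% were higher and 14.6% lower at P14, and 15.5% and 17.1% at P7. At P14, 5 were higher in Tbpl2-/- oocytes (Trib3, Asns, Sesn2, Vldlr and Fgf21) and Gdf15 was lower. At P7, 4 were higher (Trib3, Asns, Phgdh and Vldlr) and 4 lower (Ddit3, Ddit4, Gdf15 and Aldh1l2). Trib3, a pseudokinase induced by stress, had 891 ± 36.7 counts in P14 Tbpl2-/- and 166 ± 7.73 in P14 WT oocytes (log2 change 2.45 ± 0.16), and Gdf15, a stress cytokine, 7.09 ± 2.40 and 58.2 ± 9.63 (−2.99 ± 0.44, edgeR adjusted p = 7.98e-09 and 2.97e-05).

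Other lists held no member, and their counts stand beside the same shares of all genes (16.7% higher and 14.6% lower at P14, 15.5% and 17.1% at P7). Of 17 p53 target genes tested, 4 were higher (23.5%) and 4 lower (23.5%) at P14, and 6 were higher (35.3%) and 4 lower at P7. Of 24 meiotic prophase genes, 4 were higher (16.7%) and 6 lower (25%) at P14, and 8 were higher (33.3%) and 2 lower (8.33%) at P7. Of 13 early oocyte factors, 3 were higher (23.1%) and 2 lower (15.4%) at P14, and 3 were higher and 3 lower (23.1% each) at P7, with Sohlh1, left out of the members by name, among those higher at both. Of 15 oocyte genes 1 was higher at P14 and none at P7, and 10 were lower at each age (66.7%). Among the 2 smooth muscle genes tested none was called.

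By annotation, 96 of the 98 members are protein coding, and the other 2 are the long noncoding host gene of miR-9-3 (Mir9-3hg) and the pseudogene Mageb10-ps. Chromosome X held 8 of them (8.16%), against 3.07% of genes with a mean of at least 100 and 6.67% of the 105 genes that were 5-fold lower at both ages. These were Bhlhb9, Gpr143, Prdx4, Armcx1, Mageb4, Mageb10-ps, Xlr5a and Xlr5c. These include pairs that share sequence: 84.2% of 50-base stretches of Xlr5a and 84.4% of those of Xlr5c lie in other Xlr5 genes, and 82.7% of those of Mageb10-ps lie in Mageb4. The paper counted only uniquely aligned reads, and whether the shared sequence bears on the number of members on chromosome X was not tested.

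Apart from these pairs, the members within 500 kb of each other on the genome were Atf3 and Batf3 (61.4 kb apart) with Rps6kc1 186 kb farther, Sult4a1 and Pnpla5 (6.60 kb), Card10 and Cdc42ep1 (39.6 kb), and Otop3 and Rab37 (172 kb). There were 237 other genes with a mean of at least 100 that lay within 100 kb of a member without overlapping it. Genes that overlap a member were left out unless they lay beside another member. The 237 had a median log2 ratio of Tbpl2-/- over WT of 0.09 at P14 and 0.10 at P7. Of them, 12.7% and 11.0% exceeded 2-fold, against 11.6% and 12.8% of all other genes with such a mean.

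The median coefficient of variation of the members was 15.3% in P14 Tbpl2-/- and 22.8% in P14 WT oocytes, and 12.1% in P7 Tbpl2-/- and 26.6% in P7 WT oocytes. For all genes with a mean of at least 100 it was 11.3%, 10.1%, 8.64% and 14.2% in these groups. The members had higher medians in all 4 groups, but also far fewer counts, with a median of 276 over the 12 libraries against 1422 for all genes with such a mean, and of 51.9 against 1345 in P14 WT oocytes. The spread was not compared at matched counts.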

How the data were processed

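Polyadenylated RNA of 12 oocyte pools was sequenced by the authors. The counts are the authors' unnormalised reads per gene, made with STAR 2.7.0f and HTSeq 0.9.1 on mm10 per the submitters' processing notes. The deposited normalised counts are a signal, the authors' counts after division by each library's size factor from DESeq2 1.22.2. The deposited table also holds the authors' median transcript length, group values per kb, and columns of their own comparisons (log2 fold changes, test statistics and p-values), which were not used. The paper names SMART-Seq and Nextera XT kits for the libraries. Whether counting used strand was not given in the sources used here. In union mode, reads in exons shared by 2 genes are not counted, which for genes on opposite strands holds only if strand was not used.

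The members were found from the normalised counts. Tests used edgeR 4.0.16 under R 4.3.3 on the counts (TMM factors, its default filter on low counts, robust quasi-likelihood F test, two-sided, 4 group means over 12 libraries), with Benjamini-Hochberg adjustment over 17715 genes. Each standard error (SE) is the absolute log2 change divided by the square root of its F statistic. The fit was tested on simulated data. Alternatives included DESeq2 1.42.0. The members, gene lists and rules were chosen with earlier results of these data known. Genes were named by rule: Trim29 and Otop3, the 10 largest smaller ratios, the 8 highest mutant means, the 5 largest called rises and falls in each genotype, the nearest to each limit, and members on lists. Genes named by role, and Gsn and Inka2, were chosen after their values were seen. Tests of the listed genes between genotypes were added after the data were seen.

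Same-numbered pools deviated together between ages in Tbpl2-/- oocytes (correlations 0.540, 0.272 and 0.299 over genes with a mean of at least 100), but so did pools numbered 2 at one age and 3 at the other (0.395 and 0.191), and the other different-numbered pairs were below 0. In WT oocytes same-numbered pools did not (−0.143, −0.0838 and 0.0200). Between the genotypes at P14, different-numbered pools ran from −0.521 to 0.581 and same-numbered pools had −0.196, −0.370 and 0.465. Correlations of this size therefore also occurred without a shared number. The number is only a replicate label in the sources. GENCODE M21 on GRCm38 gave positions. Python 3.11.15 and matplotlib 3.10.9 were used for tables and figures.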

Additional observations from a re-analysis of the deposited data

Results flagged for a closer look

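The levels of Inka2 at P14 and P7 stood in opposite order in the genotypes, with no overlap between the pools of the 2 ages in either. It had 465, 611 and 602 normalised counts in P14 Tbpl2-/- oocytes against 375, 243 and 252 in P7 Tbpl2-/- oocytes, a log2 change of 0.96 (edgeR adjusted p = 0.00188). In WT oocytes it had 17.2, 17.2 and 10.4 at P14 against 20.1, 23.5 and 25.6 at P7, a log2 change of −0.63 (edgeR adjusted p = 0.0997). Neither change was called, since that in Tbpl2-/- oocytes was under 2-fold and that in WT oocytes missed both the limit on p and the 2-fold limit, and the difference between the genotypes was not tested. It is 1 of 98 members looked at in this way.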

How the results depend on the processing

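The counts of members that changed with age held within 1.5 times under other size factors, library size alone, DESeq2, no filter on low counts, and a fit of the 2 groups alone. With the replicate number as a block, 23 rose and 15 fell in Tbpl2-/- oocytes and 18 rose and 16 fell in WT oocytes; with the block and the 2 groups alone, added after seeing the data, the counts were 22, 16, 12 and 16, so the block moved no count by over 1.5 times. Leaving out a library gave 20 to 26 that rose and 12 to 17 that fell in Tbpl2-/- oocytes, and 14 to 19 and 15 to 20 in WT oocytes. With no fold limit, 26 rose and 26 fell in WT oocytes. From a 4-fold list of 148 genes, 23 fell in Tbpl2-/- and 25 in WT oocytes. From a 10-fold list of 27, 5 rose and 4 fell in Tbpl2-/- oocytes, and 4 rose and 8 fell in WT oocytes. The number of members was 158 by library size alone, 102 by TMM, 148 at 4-fold, 27 at 10-fold, 133 and 58 at a mean of at least 50 and 200, and 101 by group medians. Without 1 library it was 88 to 102, with 73 members in all 12 such lists. Of 720 repeats for the 19 genes named for age, 660 kept their call and direction, 54 lost a call, 6 gained one and none changed direction. Ratios rest on few WT reads for the lowest members, 3 pools per group limit every test, and amplified reads without molecular identifiers are not independent molecules.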
